A study of Mus musculus with 6 samples.

Results

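Gdnf, its receptors, the neurotrophins with their receptors, and the growth cone gene Gap43 were followed in immortalized mouse embryonic fibroblasts (MEF) that lacked either of the RNA-binding proteins TIA1 and TIAR. The 9 genes were Gdnf, Gfra1, Gfra2, Ret, Bdnf, Ntf3, Ngfr, Ntrk2 and Gap43, out of 24743 genes with a named probe on the array, and they were found by the gene name that the scanner software gives each probe. They were read by 11 probes on 29 spots, and Ntrk2 was the 1 gene with more than 1 probe. The members were chosen by log2 levels of these same arrays. Gdnf was picked because it moved in opposite directions in the knockout lines, and Gap43 because it was high in TIA1 KO MEF. The values of Gdnf and Gap43 are therefore given as a description and with no test, while other members were tested.

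GDNF is a secreted ligand of the TGF-beta superfamily that binds the anchored co-receptor GFRA1 and, with it, activates the receptor tyrosine kinase RET. In the embryo the metanephric mesenchyme secretes GDNF and the ureteric bud answers it through RET, and the same ligand supports enteric, motor and dopaminergic neurons. Neurotrophins such as BDNF, NT-3 and NT-4/5 signal through the Trk kinases and the low affinity receptor p75NTR, encoded by Ngfr. GAP43 is a membrane-bound phosphoprotein of growing and regenerating axons whose mRNA is known as a target of neuronal RNA-binding proteins. TIA1 and TIAR (gene Tial1) bind U-rich stretches of RNA and act on splicing, mRNA stability and translation.

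Total RNA of 3 groups was read on 6 single-colour mouse arrays, 2 for each group. The groups were wild type MEF (WT, background W4), MEF with the TIA1 knockout (TIA1 KO, background BALB/c) and MEF with the TIAR knockout (TIAR KO, background C57BL/6), and all of them were immortalized cultures for which the labels give no treatment. Background, cell line and genotype changed together, so their parts in any difference cannot be told apart. The 2 arrays of a group came from independent experiments on 1 genotype, and p-values measure the spread between such samples of a line and not between animals. All 6 arrays lay on 1 slide, with the WT and TIAR KO arrays in row 1 and the TIA1 KO arrays in row 2, so slide row and TIA1 KO cannot be told apart either.

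The arrays differed in brightness before normalization. The median raw intensity of a spot reached 458 and 218 in TIA1 KO, and only 152 and 140 in WT and 136 and 119 in TIAR KO. The TIA1 KO arrays were the brightest and had the fewest probes that the software rated well above background, with 16021 and 19996 of 55681, against 23569 and 26295 in WT and 24796 and 26011 in TIAR KO. Levels below are log2 of the background-corrected and normalized intensity of a gene's brightest probe, and levels of different probes are not comparable. A gene is said to have risen or fallen where limma gave a Benjamini-Hochberg adjusted p under 0.05 over all 55681 probes together with a fold above 2.

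The targeted genes were checked first. Tia1, read by its brightest probe, was at 10.72 and 8.54 in WT, 9.56 and 9.58 in TIAR KO, and 7.87 and 8.44 in TIA1 KO. It was lowest in TIA1 KO, although the WT arrays lay far apart and the difference of -1.47 did not pass (limma adjusted p = 0.288). A second Tia1 probe read 9.56 and 9.90 in WT, 7.57 and 8.65 in TIA1 KO and 9.98 and 8.63 in TIAR KO, a difference of -1.62 for TIA1 KO (limma adjusted p = 0.116). The remaining Tia1 probe, not well above background in WT or TIAR KO, ran the other way, at 7.44 and 7.25 in WT, 7.45 and 7.45 in TIAR KO and 7.88 and 8.54 in TIA1 KO, with 1 TIA1 KO array above background (limma adjusted p = 0.149). No Tia1 probe passed. The brightest Tial1 probe was at 13.22 on the WT array with a usable spot, 14.07 and 13.69 in TIA1 KO, and 9.57 and 11.60 in TIAR KO, which gave a difference of -2.63 for TIAR KO minus WT (limma adjusted p = 0.200). A second Tial1 probe read 11.71 and 11.09 in WT against 10.00 and 9.65 in TIAR KO and fell by 1.58 (limma adjusted p = 0.0254). Where these probes lie relative to the disrupted exons was not analysed here.

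Fibroblast markers differed between the groups as well. Of the 10 genes of the fibroblast list, 6 rose in TIA1 KO, where 3.39% of the 24743 genes were higher and 2.05% lower, and 7 rose in TIAR KO, where 5.64% were higher and 3.48% lower, and none fell. Vim and S100a4, whose probe had the highest mean intensity of the list, did not pass in either comparison, whereas the collagen gene Col3a1 was 6.32 higher in TIA1 KO (limma adjusted p = 0.00369) and 6.60 higher in TIAR KO (limma adjusted p = 0.00206). The PDGF receptor gene Pdgfra was not well above background on either WT array, and Lum on none of the 6 arrays. Thy1 and Dcn also differed between the knockouts. Thy1 read 6.63 and 6.98 in WT, 7.11 and 7.48 in TIA1 KO and 14.84 and 14.74 in TIAR KO. Dcn read 6.57 and 6.62 in WT, 9.24 and 9.29 in TIA1 KO and 15.67 and 15.82 in TIAR KO. Both rose in TIAR KO (limma adjusted p = 0.000176 for each). In TIA1 KO Dcn rose (limma adjusted p = 0.00773) and Thy1 did not pass (limma adjusted p = 0.244). Dcn was rated well above background on only 1 WT array and 1 TIA1 KO array, so the size of that rise is uncertain. The summed intensity of the list was 492232 and 530910 in WT, 1064860 and 1021280 in TIA1 KO, and 1213490 and 1242600 in TIAR KO, with the lowest sums in WT. In bulk RNA fewer cells of a type and less RNA per cell cannot be told apart, and the part of these marker differences in the results below was not tested.

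The sequences that read the leading genes were short stretches of the mouse transcripts. The 60-base probes of Gdnf (mm9 chr15:7787474-7787533, plus strand), Gap43 (mm9 chr16:42248714-42248773, minus strand) and Bdnf (mm9 chr2:109566961-109567020, plus strand) were each spotted once, and whether they lie in a coding exon or a UTR was not analysed here. For each, 30 bases are shown 5′ to 3′, chosen to hold TTTTT where the probe did and then the most T. Runs of 3 or more T (U in the mRNA) are in capitals, because TIA proteins bind U-rich RNA.
Gdnf, chr15:7787502-7787531: accaaagttctctacaaacTTTaTTTTTgt
Gap43, chr16:42248721-42248750: tattaagtgaattcaaaaaccaTTTctgtt
Bdnf, chr2:109566975-109567004: ccttgttctctctatggtaaagatattatt
The Gdnf probe held the letters TTTTT, searched on the probe strand, and 10.2% of the 55681 probes did so too. The Gap43 and Bdnf probes did not hold them. All 3 probes had more T than the median probe of the array, with 25 bases in Gdnf and 21 each in Gap43 and Bdnf against 17.0. These letters describe the probes only, and binding was not measured.

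Gdnf was at 11.87 and 11.92 in WT, 13.96 and 14.07 in TIA1 KO, and 7.45 and 7.41 in TIAR KO. The groups did not overlap, TIA1 KO was highest and TIAR KO lowest, and arrays of a group lay close together. The difference was 2.11 for TIA1 KO minus WT, a 4.33-fold higher level, and -4.47 for TIAR KO minus WT, a 22.1-fold lower level. By size, Gdnf ranked 498 from the top of 24743 genes in TIA1 KO and 30 from the bottom in TIAR KO. The 2 comparisons shared the WT arrays. TIAR KO minus TIA1 KO, which did not use them, was -6.58, or 95.7-fold.

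Gdnf was rated well above background on all 6 arrays, but its TIAR KO levels were near the floor. The lowest level so rated on those 2 arrays was 6.65 and 7.21, so the size of the fall depends on the background correction. With an offset of 16 in place of 50 it was -4.83. The difference in TIA1 KO depended on the scaling of the arrays: it dropped to 0.69 with scaling to a common median, a setting in which the median probe of the array shifted by -0.67. With the processed intensities scaled to their 75th percentile it was 2.12 beside a median probe shifted by 1.98, which leaves 0.13 relative to that median. The fall in TIAR KO stayed between -5.99 and -4.33 in the 15 settings tried.

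**Figure D1:**
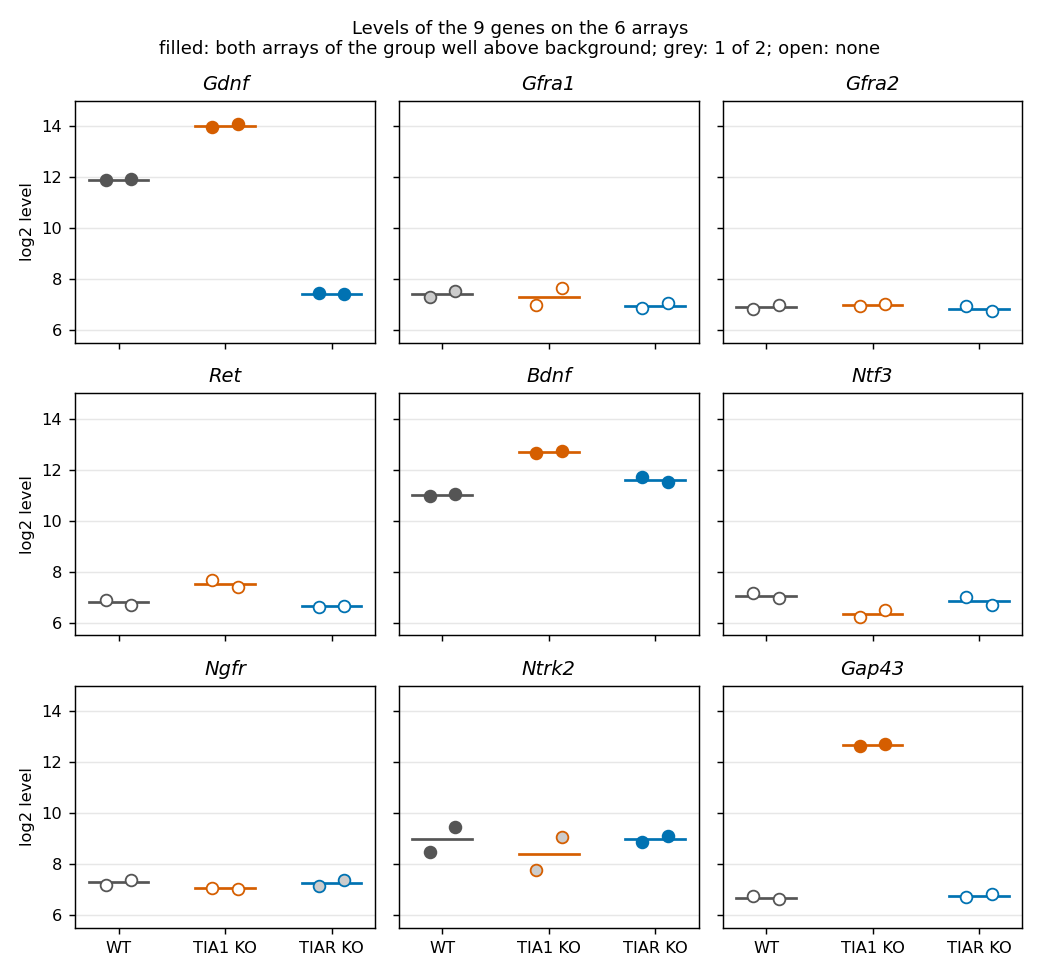
Log2 level (y axis) of the brightest probe of each of the 9 genes on the 2 arrays of WT, TIA1 KO and TIAR KO (x axis), with points for arrays and lines for group means. Gdnf separated all 3 groups, Gap43 stood at 12.64 and 12.72 in TIA1 KO against values under 7 elsewhere, and Gfra2, Ret and Ntf3 stayed at background throughout.

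The region before the Gdnf start is shown because Gdnf and Artn, the gene of the related ligand artemin, were ordered alike over the groups. RefSeq promoters (GRCm38.p6, a build other than that of the probes) were matched by symbol for 6 of the 9 genes, with 2 listed starts for Gdnf and 1 for Artn. The 250 bases before the first Gdnf start and the Artn start are printed on the strand of the gene, with matches on either strand to the TATA box core TATAAA, the AP-1 letters TGANTCA, the cyclic AMP response letters TGACGTCA, the GC box GGGCGG and the E box CACGTG in capitals, none of which overlapped another here.
Gdnf, first listed start, chr15:7809798-7810047: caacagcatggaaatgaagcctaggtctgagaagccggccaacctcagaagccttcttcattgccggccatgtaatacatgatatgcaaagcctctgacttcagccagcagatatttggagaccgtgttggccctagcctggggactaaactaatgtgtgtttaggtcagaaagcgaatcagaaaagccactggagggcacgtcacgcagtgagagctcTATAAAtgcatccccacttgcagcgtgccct
Artn, chr4:117929764-117930013: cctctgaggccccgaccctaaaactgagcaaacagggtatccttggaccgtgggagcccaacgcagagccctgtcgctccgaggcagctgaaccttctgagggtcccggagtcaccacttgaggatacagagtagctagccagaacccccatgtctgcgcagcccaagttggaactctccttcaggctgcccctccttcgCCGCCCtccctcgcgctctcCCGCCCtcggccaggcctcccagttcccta
The first Gdnf window held 1 match to TATAAA, which 12.4% of 32851 promoters of this length also held. The Artn window held 2 matches to GGGCGG, found in 32.7% of promoters, and none to TATAAA. Neither window held TGANTCA, TGACGTCA or CACGTG, which occurred in 6.75%, 1.55% and 6.02% of promoters. The G and C content was 50.8% in the first Gdnf window and 63.6% in the Artn window, against a median of 52.4%. The window before the second Gdnf start (chr15:7813477-7813726) held 0 matches to these letters, at 46.8% G and C.

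The other ligands of the GDNF family were not all ordered like Gdnf. Artn was at 9.56 and 9.67 in WT, 11.35 and 11.12 in TIA1 KO, and 7.31 and 7.49 in TIAR KO, with no overlap between groups. It rose by 1.62 ± 0.17 (SE) in TIA1 KO (limma adjusted p = 0.0276) and fell by 2.21 in TIAR KO (limma adjusted p = 0.00154), and TIAR KO minus TIA1 KO was -3.84 (limma adjusted p = 0.00752). The fall in TIAR KO held in all 15 settings, from -3.90 to -2.12, while the rise in TIA1 KO lost its call in 7 of 15, with values from 0.53 to 1.77. With the 75th percentile scaling it was 1.71, which is -0.27 relative to the median probe.

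Neurturin (Nrtn) read 10.75 and 10.89 in WT, 10.32 and 10.67 in TIA1 KO and 11.44 and 11.69 in TIAR KO, so its order was the opposite of that of Gdnf, and neither difference from WT passed (limma adjusted p = 0.328 and 0.0615). Persephin (Pspn) was not well above background in WT or TIA1 KO and read 8.06 and 8.05 in TIAR KO, at least 1.97-fold above WT (limma adjusted p = 0.0114). The call of Pspn was lost in 4 of 15 settings. Of the 4 ligands other than Gdnf, 1 was called in TIA1 KO, the rise of Artn, where 5.44% of the 24743 genes were called, 3.39% higher and 2.05% lower. In TIAR KO 1 rose (Pspn) and 1 fell (Artn), where 9.13% of genes were called, 5.64% higher and 3.48% lower.

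Ret, Gfra1 and Gfra2 were near background in all 3 lines. Ret, the signalling kinase, read 6.90 and 6.69 in WT, 7.67 and 7.39 in TIA1 KO and 6.63 and 6.67 in TIAR KO, and no array rated it well above background. Gfra1, the co-receptor that GDNF prefers, read 7.30 and 7.54 in WT, 6.99 and 7.64 in TIA1 KO and 6.88 and 7.05 in TIAR KO, and 1 WT array rated it so. Gfra2, the co-receptor of neurturin, ranged from 6.74 to 7.02 over the 6 arrays with none rated above background. At these levels no difference in Ret, Gfra1 or Gfra2 was detectable, and a low level cannot be told from none.

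Among the co-receptors, Gfra4, which serves persephin, was rated above background on all arrays, with 11.70 and 11.66 in WT, 12.46 and 12.24 in TIA1 KO, and 12.06 and 12.20 in TIAR KO. Its differences of 0.67 and 0.45 did not pass (limma adjusted p = 0.110 and 0.161). NCAM1, a cell adhesion molecule that can bind GDNF without RET, was encoded by the gene of the list that rose most in TIA1 KO. Ncam1 was at 8.79 and 8.75 in WT, 13.33 and 13.13 in TIA1 KO and 9.91 and 10.82 in TIAR KO, so both kinds of knockout cells lay above WT with no overlap. It rose by 4.46 ± 0.16 (SE) in TIA1 KO (limma adjusted p = 0.00418) and by 1.59 ± 0.31 in TIAR KO (limma adjusted p = 0.0436), a call lost in 5 of 15 settings.

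Syndecan-3 (Sdc3), a heparan sulfate proteoglycan that also binds GDNF family ligands, was at 9.35 and 9.74 in WT, 11.02 and 10.67 in TIA1 KO and 13.01 and 12.73 in TIAR KO. It rose by 3.33 ± 0.20 in TIAR KO (limma adjusted p = 0.00105), and its difference of 1.30 in TIA1 KO did not pass (limma adjusted p = 0.0734). Of the 8 receptor and co-receptor genes, 1 rose and 0 fell in TIA1 KO (3.39% of all genes higher), and 2 rose and 0 fell in TIAR KO (5.64% higher). Those that rose were Ncam1 in both and Sdc3 in TIAR KO.

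**Figure D2:**
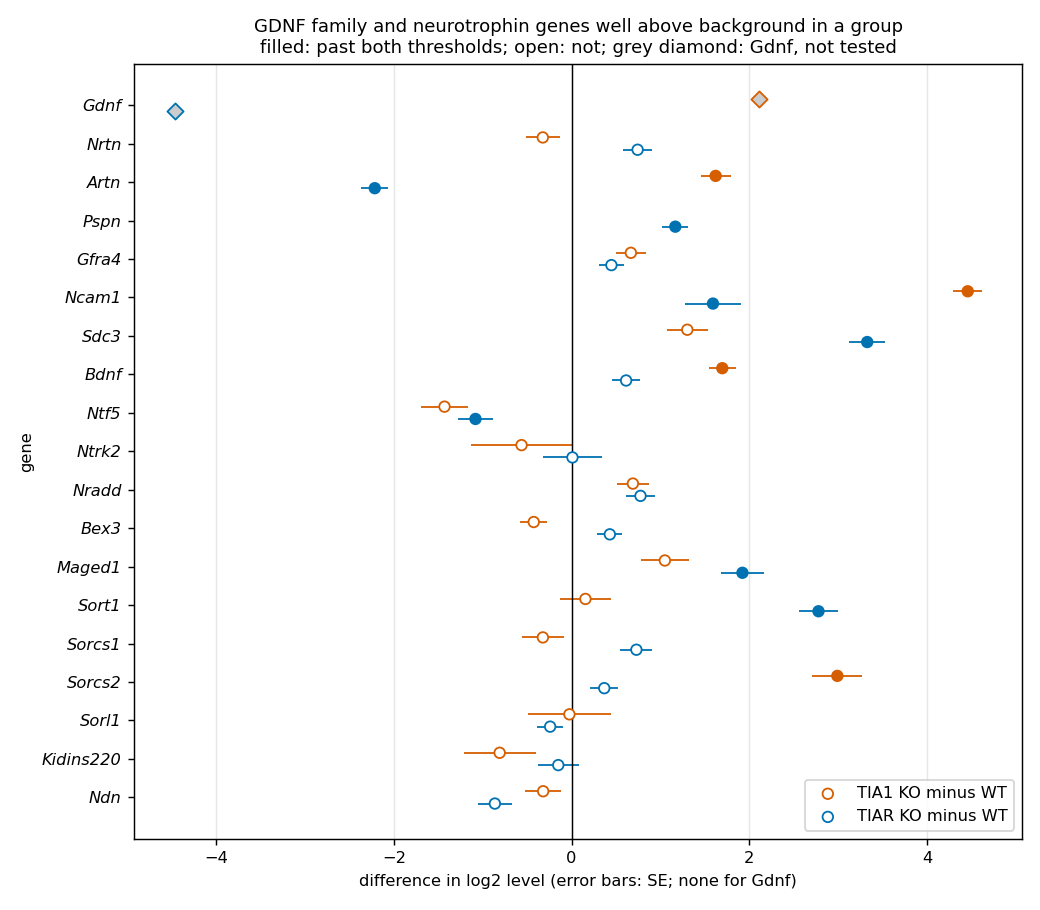
Difference in log2 level from WT (x axis, error bars SE) for the 19 GDNF family and neurotrophin genes (y axis) rated well above background on both arrays of a group, with filled points for genes past both thresholds and no point where both groups were at background. Artn lay at 1.62 and -2.21, on the same sides of 0 as Gdnf, while Bdnf was at 1.70 in TIA1 KO and 0.61 in TIAR KO.

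Bdnf, which encodes the neurotrophin of activity-dependent synaptic growth, was the neurotrophin member that passed the test. It was at 10.96 and 11.04 in WT, 12.65 and 12.74 in TIA1 KO, and 11.72 and 11.50 in TIAR KO. TIA1 KO was highest, TIAR KO lay between, and no groups overlapped. Bdnf rose by 1.70 ± 0.15 (SE) in TIA1 KO, 3.24-fold (limma adjusted p = 0.0205). In TIAR KO its difference from WT was 0.61 ± 0.16 (limma adjusted p = 0.0879), and TIAR KO minus TIA1 KO was -1.08 (limma adjusted p = 0.0591). The call in TIA1 KO was lost in 6 of 15 settings, and with a common median the difference was 0.20. With the 75th percentile scaling it was 1.66, which is -0.33 relative to the median probe, so its direction there depends on the reference.

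The count of calls in TIA1 KO moved with the arrays left out. Without WT replicate 1 or without WT replicate 2, where the lone WT array is assumed to vary like the TIA1 KO arrays, limma called 0 of 55681 probes in TIA1 KO, with 7202 and 7415 at an unadjusted p under 0.05. The difference of Gdnf was then 2.09 and 2.14, that of Artn 1.57 and 1.67, and that of Bdnf 1.65 and 1.74 (limma adjusted p = 0.299 and 0.292). The 75th percentile scaling also gave 0 calls in TIA1 KO, with 27765 probes at an unadjusted p under 0.05. These 3 settings are counted among those in which a TIA1 KO call was lost. With either WT array left out, the TIAR KO comparison had 2699 and 2797 calls, against 3206 with all arrays. In TIAR KO minus TIA1 KO 0 probes were called without either TIAR KO replicate, with 6318 and 6402 at an unadjusted p under 0.05, while the difference was -6.60 and -6.56 for Gdnf and -3.74 and -3.93 for Artn.

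Ntf5, the gene of NT-4/5, was at 9.87 and 10.30 in WT, 8.41 and 8.90 in TIA1 KO and 9.02 and 8.99 in TIAR KO. It fell by 1.08 in TIAR KO (limma adjusted p = 0.0324), a call lost in 6 of 15 settings with values from -1.40 to -0.86, and its difference of -1.43 in TIA1 KO did not pass (limma adjusted p = 0.0790).

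Ntf3, which encodes the TrkC ligand NT-3, ranged from 6.21 to 7.15 and was well above background on no array, so no fold is given. Of the 3 neurotrophin genes reported, 1 was called in TIA1 KO, where it rose, and 1 in TIAR KO, where it fell, beside 3.39% of all genes higher in TIA1 KO and 3.48% lower in TIAR KO.

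The receptors of the neurotrophins were dim. Ntrk2, the kinase TrkB that binds BDNF, read 8.49 and 9.46 in WT, 7.77 and 9.06 in TIA1 KO and 8.88 and 9.09 in TIAR KO by its brightest probe (mm9 chr13, from 58979563). The groups overlapped and the differences of -0.56 and 0.01 were within the spread of the arrays (limma adjusted p = 0.535 and 0.993). The other 2 Ntrk2 probes, which start at 59038046 and 59230936, were near background, so the probes disagree on whether the gene was measurable. Ngfr ranged from 7.04 to 7.39 and was rated above background on 1 TIAR KO array. The TrkC gene Ntrk3, outside the 9 genes, was also near background, with 1 TIAR KO array above it.

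Partners of these receptors were better measured. Sortilin (Sort1), which pairs with p75NTR in binding proneurotrophins, was at 7.60 and 7.74 in WT, 7.48 and 8.18 in TIA1 KO, and 10.73 and 10.17 in TIAR KO, and it rose by 2.78 ± 0.22 in TIAR KO (limma adjusted p = 0.00257). Its relative Sorcs2 was at 7.59 and 7.85 in WT, 10.39 and 11.03 in TIA1 KO and 8.06 and 8.11 in TIAR KO, and it rose by 2.99 ± 0.28 in TIA1 KO (limma adjusted p = 0.0224). Sort1 was at background in TIA1 KO and at least 5.09-fold higher in TIAR KO (limma adjusted p = 0.0420), and TIAR KO minus TIA1 KO was -2.62 for Sorcs2 (limma adjusted p = 0.0271), so Sort1 was highest in TIAR KO and Sorcs2 in TIA1 KO. Between the knockouts the call of Sort1 was lost in 5 of 15 settings and that of Sorcs2 in 4. Sorcs2 in TIA1 KO against WT lost its call in 4 as well. Maged1, encoding the p75NTR-interacting protein NRAGE, rose by 1.92 in TIAR KO (limma adjusted p = 0.0107), a call lost in 4 of 15 settings. Of the 15 receptor and partner genes, 1 rose in TIA1 KO (3.39% of all genes higher), 2 rose in TIAR KO (5.64% higher) and 0 fell in either.

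Among the 10 genes that process neurotrophins, 1 rose and 1 fell in TIA1 KO, where 3.39% of all genes were higher and 2.05% lower, and 4 rose and 0 fell in TIAR KO, where 5.64% were higher and 3.48% lower. Plau, the gene of the plasminogen activator uPA, read 8.15 and 8.08 in WT, 11.05 and 11.35 in TIA1 KO and 9.31 and 9.27 in TIAR KO, with no overlap. It rose by 3.09 in TIA1 KO (limma adjusted p = 0.00840) and by 1.18 in TIAR KO (limma adjusted p = 0.00902). These calls were lost in 3 of 15 settings in TIA1 KO and 4 of 15 in TIAR KO. Plat, which encodes the activator tPA, was 1.53 higher in TIAR KO (limma adjusted p = 0.00608). The proprotein convertase gene Pcsk6 was 1.90 higher in TIAR KO (limma adjusted p = 0.00788), and the metalloprotease gene Mmp3, at background in WT, was at least 3.35-fold higher there (limma adjusted p = 0.00239). The neuroserpin gene Serpini1 was at background in TIA1 KO and at least 3.93-fold lower than in WT (limma adjusted p = 0.0360). Its call was lost in 5 of 15 settings.

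Gap43 was seen in 1 line. It read 6.74 and 6.63 in WT, 12.64 and 12.72 in TIA1 KO, and 6.70 and 6.83 in TIAR KO, and the TIA1 KO arrays were the 2 that rated it well above background. Under the reported processing, TIA1 KO was at least 54.8-fold above WT and at least 53.0-fold above TIAR KO. For these bounds the dim group stands at the higher of its own signal and the lowest signal rated well above background. The size depends on the scaling: TIA1 KO minus WT, with WT at background, was 5.07 with a common median and 9.78 with the 75th percentile scaling. WT and TIAR KO were both at background, so no fold between them is given.

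**Figure D3:**
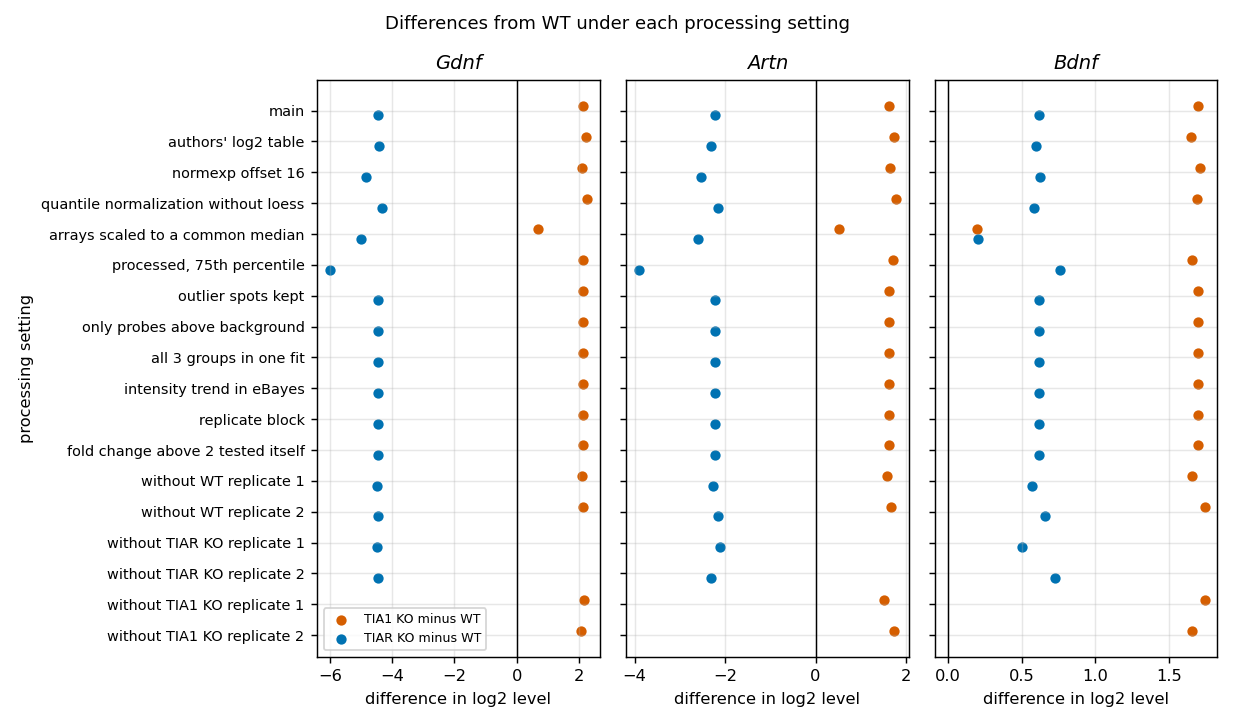
Difference in log2 level from WT (x axis) of Gdnf, Artn and Bdnf under the reported processing and each alternative (y axis), with TIA1 KO in orange and TIAR KO in blue. In TIA1 KO scaling to a common median lowered Gdnf to 0.69, Artn to 0.53 and Bdnf to 0.20.

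Of the other 29 growth cone genes measured, 4 rose and 1 fell in TIA1 KO, beside 3.39% and 2.05% of all genes, and 7 rose and 0 fell in TIAR KO, beside 5.64% and 3.48%. Stmn4, a stathmin gene of the nervous system, was at 8.78 and 8.83 in WT, 10.32 and 10.37 in TIA1 KO and 8.24 and 8.50 in TIAR KO. It rose by 1.54 in TIA1 KO (limma adjusted p = 0.0234), and TIAR KO minus TIA1 KO was -1.97 (limma adjusted p = 0.0203). Marcks, encoding a kinase C substrate related in function to GAP43, was at 12.51 and 12.79 in WT, 14.60 and 14.78 in TIA1 KO and 16.29 and 16.23 in TIAR KO. It rose in both, by 2.03 (limma adjusted p = 0.0213) and 3.61 (limma adjusted p = 0.000467), and was highest in TIAR KO. Its call in TIA1 KO was lost in 6 of 15 settings, with values down to 0.42.

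Gpm6a, a membrane glycoprotein of neurites, was near background in WT and TIA1 KO and read 12.98 and 12.52 in TIAR KO, at least 58.3-fold above WT (limma adjusted p = 0.000254). Gnao1, the Go protein subunit that GAP43 can act on, rose by 1.48 in TIA1 KO (limma adjusted p = 0.0439) and by 2.43 in TIAR KO (limma adjusted p = 0.00195). In TIA1 KO the collapsin response mediator gene Dpysl3 rose by 2.85 (limma adjusted p = 0.00824) and the neuronal tubulin gene Tubb2b fell by 4.08 (limma adjusted p = 0.00432), from 13.68 and 13.81 in WT to 9.64 and 9.69.

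Of 17 nerve injury response genes other than Gap43, 1 was called in TIA1 KO, where it fell and where 5.44% of all genes were called, and in TIAR KO 4 rose and 1 fell, where 9.13% were called. In TIAR KO the transcription factor gene Sox11 rose by 2.84 (limma adjusted p = 0.000760) and the gene that fell was Jun, by 2.14 (limma adjusted p = 0.0416). Jun read 14.11 and 14.03 in WT and 12.56 and 11.29 in TIAR KO, its difference was -2.78 without TIAR KO replicate 1 and -1.51 without TIAR KO replicate 2, and its call was lost in 4 of 15 settings. The gene called in TIA1 KO was the heat shock gene Hspb1, which fell by 2.68 (limma adjusted p = 0.0203), a call lost in 4 of 15 settings. Of 15 genes for RNA binders of neuronal mRNAs, 1 was called in each, where it fell, beside 2.05% of all genes lower in TIA1 KO and 3.48% in TIAR KO. It was Elavl2, a Hu protein gene, which read 8.65 and 8.16 in WT and was at background in both kinds of knockout cells. Elavl2 was at least 2.17-fold lower in TIA1 KO (limma adjusted p = 0.0371) and at least 2.35-fold lower in TIAR KO (limma adjusted p = 0.0221). These calls were lost in 5 of 15 settings in TIA1 KO and 4 of 15 in TIAR KO.

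Markers of neurons and glia were also measured. Of the 10 neuron markers limma called 0 against WT in either kind of knockout cells, with 5 in TIA1 KO and 2 in TIAR KO at an unadjusted p under 0.05, and Rbfox3, Nefl, Nefm and Stmn2 were well above background on no array. The list summed to an intensity of 9256 and 8797 in TIA1 KO, 5285 and 4566 in WT, and 5912 and 6234 in TIAR KO, and Snap25 had the probe of highest mean intensity. Snap25, a synaptic vesicle fusion gene, was at 11.31 and 10.78 in WT, 12.62 and 12.50 in TIA1 KO and 11.08 and 10.89 in TIAR KO. It was highest in TIA1 KO, with a difference of 1.52 from WT (limma adjusted p = 0.0581), and TIAR KO minus TIA1 KO was -1.57 and passed (limma adjusted p = 0.0294). Others of the list were lower in TIA1 KO than in WT and at background there. They were at least 1.45-fold lower for Elavl4, 1.07-fold for Elavl3 and 1.04-fold for Syt1 (limma adjusted p = 0.0634, 0.145 and 0.163). Of 9 Schwann and neural crest markers, Mbp rose in TIA1 KO and in TIAR KO, no other was called, and S100b, Foxd3 and Cdh19 were at background on every array. The summed intensity of this list was 1396 and 1340 in WT, 2302 and 2030 in TIA1 KO and 4502 and 4053 in TIAR KO. Of the other lists, 2 of 8 epithelial and 1 of 8 skeletal muscle markers rose in TIA1 KO and 3 and 2 in TIAR KO, 1 of 7 macrophage markers fell in TIAR KO, and 0 of 7 endothelial markers were called, with 1 in TIA1 KO and 1 in TIAR KO at an unadjusted p under 0.05. Over all genes 3.39% were higher and 2.05% lower in TIA1 KO, and 5.64% and 3.48% in TIAR KO. An unadjusted p under 0.05 was met by 15484 of all 55681 probes in TIA1 KO and 11247 in TIAR KO. The counts of markers at that level are therefore not read as a result about the markers. The part of these markers in the Gap43 difference was not tested.

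Genes that set Gdnf in kidney mesenchyme, or act beside it on ureteric bud growth, were also measured. The list mixes activators of Gdnf with genes that restrict it, so its counts give no expected direction for Gdnf. Of the 21 genes, 7 rose and 1 fell in TIA1 KO, beside 3.39% and 2.05% of all genes, and 3 rose and 4 fell in TIAR KO, beside 5.64% and 3.48%. The 1 that fell in TIA1 KO was Eya1, an upstream activator of Gdnf in that tissue, at 15.54 and 15.81 in WT, 14.28 and 14.34 in TIA1 KO and 15.48 and 15.72 in TIAR KO, a difference of -1.37 (limma adjusted p = 0.0405). Grem1, the BMP antagonist that lets ureteric outgrowth proceed, read 7.03 and 7.10 in WT, 12.63 and 12.54 in TIA1 KO and 6.71 and 7.05 in TIAR KO. It rose by 5.52 ± 0.15 in TIA1 KO (limma adjusted p = 0.00362). Hoxa11, a patterning gene of the mesenchyme, was at background in WT and TIAR KO and at 11.16 and 11.50 in TIA1 KO, at least 19.6-fold above WT (limma adjusted p = 0.00517).

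The forkhead gene Foxc2, which restricts the Gdnf domain, rose in both, by 4.52 in TIA1 KO (limma adjusted p = 0.00582) and 2.21 in TIAR KO (limma adjusted p = 0.0360). The TIAR KO arrays read 9.43 and 10.64, which gave 1.61 without replicate 2, and that call was lost in 3 of 15 settings. Sall1, a zinc finger gene needed for ureteric bud invasion, rose to 9.81 and 9.05 in TIA1 KO, at least 5.28-fold above WT (limma adjusted p = 0.0341), a call lost in 7 of 15 settings. In TIAR KO the early mesenchyme gene Osr1 fell by 2.52 (limma adjusted p = 0.00117) and the mesenchymal growth factor gene Fgf10 fell by 2.36 (limma adjusted p = 0.00195). Wt1, a further activator in that tissue, was instead at 11.15 and 10.69 in TIAR KO against background levels in WT, at least 16.3-fold higher (limma adjusted p = 0.000488).

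**Figure D4:**
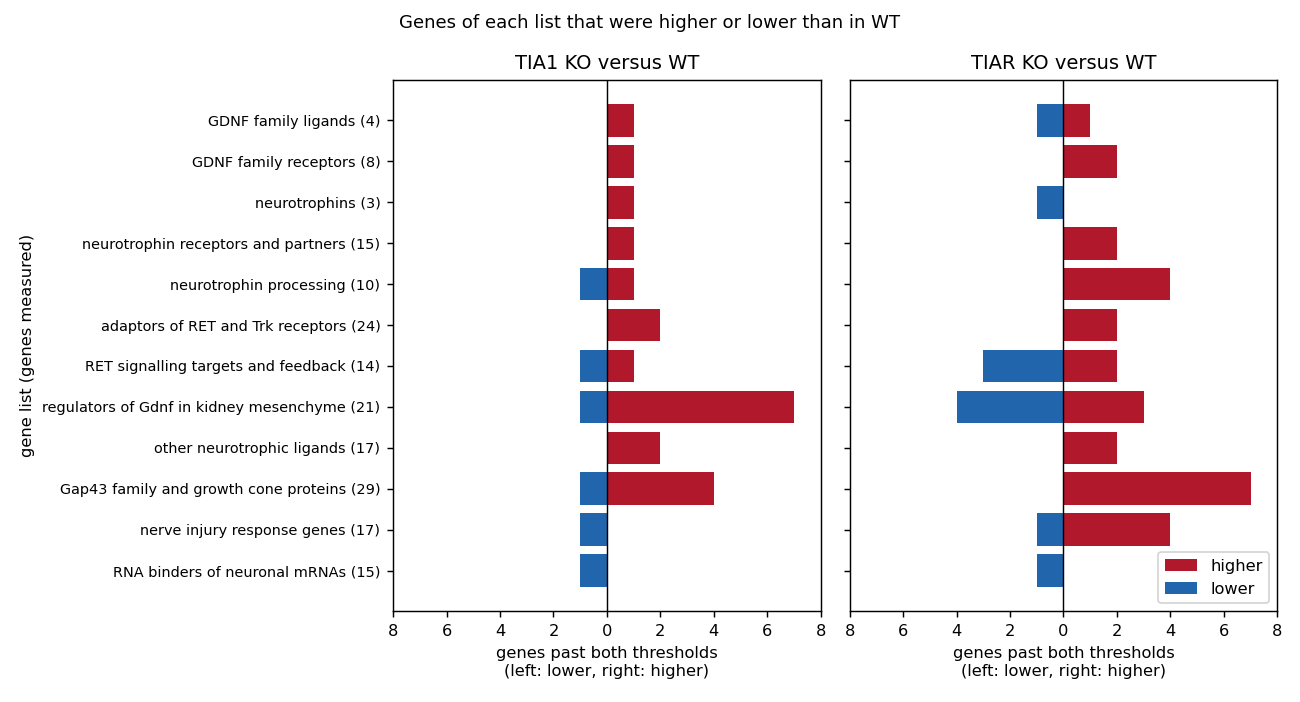
Number of genes past both thresholds (x axis, lower to the left and higher to the right) in each gene list (y axis, genes measured in parentheses) for TIA1 KO and TIAR KO against WT, with Gdnf and Gap43 left out. The longest bars are the 7 genes of the kidney mesenchyme list that rose in TIA1 KO and the 7 growth cone genes that rose in TIAR KO.

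Downstream of RET, 1 of 14 target and feedback genes rose and 1 fell in TIA1 KO, beside 3.39% and 2.05% of all genes, and 2 rose and 3 fell in TIAR KO, beside 5.64% and 3.48%. Etv4, an ETS factor gene induced by RET in the ureteric bud, fell in both. The fall was 1.45 in TIA1 KO (limma adjusted p = 0.0283) and 2.02 in TIAR KO (limma adjusted p = 0.00205). The TIA1 KO call of Etv4 was lost in 5 of 15 settings. Spry1, the feedback inhibitor of RET signalling, was at 7.36 and 7.02 in WT, 9.83 and 9.03 in TIA1 KO and 11.51 and 11.47 in TIAR KO, and rose by 4.30 in TIAR KO (limma adjusted p = 0.000367). The immediate early gene Egr1 fell by 3.68 in TIAR KO (limma adjusted p = 0.000372).

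The membrane protease gene Mmp14 rose in both, by 1.89 and 2.24 (limma adjusted p = 0.0190 and 0.00136), and its call in TIA1 KO was lost in 6 of 15 settings, with values down to 0.39. Of the 24 adaptors and effectors, 2 were called in TIA1 KO and 2 in TIAR KO, all higher, where 5.44% and 9.13% of all genes were called. They were Irs1 (1.97) and Irs2 (1.32) in TIA1 KO (limma adjusted p = 0.0173 and 0.0327), docking proteins for insulin and growth factor receptors, and Plcg1 (1.30) and Shc2 (1.10) in TIAR KO (limma adjusted p = 0.00623 and 0.0136), and the call of Shc2 was lost in 7 of 15 settings. The call of Irs1 was lost in 6, with values down to 0.46. The rise of Irs2 kept its call in 8 of 15 settings and turned to -0.27 with arrays scaled to a common median.

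Of 17 other neurotrophic ligands and partners, 2 rose and 0 fell in each comparison, where 3.39% of all genes were higher in TIA1 KO and 5.64% in TIAR KO. Pleiotrophin (Ptn), a heparin-binding neurite growth factor, read 7.27 and 6.90 in WT, 8.25 and 8.80 in TIA1 KO and 14.05 and 13.82 in TIAR KO, and rose by 6.85 ± 0.19 in TIAR KO (limma adjusted p = 0.000189). Neuropilin-1 (Nrp1) rose in both, by 2.72 (limma adjusted p = 0.0102) and 1.99 (limma adjusted p = 0.00253). Manf, an ER-resident trophic factor, rose by 1.46 in TIA1 KO (limma adjusted p = 0.0370). Its call was kept in 8 of 15 settings, and the difference turned to -0.11 with a common median.

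Over the 12 lists together, without Gdnf and Gap43, 21 of 177 genes rose and 6 fell in TIA1 KO, beside 3.39% and 2.05% of all genes, and 29 rose and 11 fell in TIAR KO, beside 5.64% and 3.48%. The median difference was 0.06 in TIA1 KO and 0.07 in TIAR KO, against -0.07 and -0.01 over the 24743 genes. Both arrays of a group rated 137 of the 177 genes well above background. The lists were drawn up with earlier results of these data known, and the background share of all genes takes in many at background, so nothing particular to the lists is read from these counts. TIAR KO minus TIA1 KO called 15 of them higher and 15 lower, where 2.72% and 2.48% of all genes were called, 5.2% together.

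Finally, the genes whose pattern over the 6 arrays lay nearest to Gdnf and Gap43 were found by the Euclidean distance between mean-centred log2 levels, among 14194 genes well above background on both arrays of a group and with a usable spot on all 6. Nearest to Gdnf was Fgf7, a fibroblast-derived growth factor gene (distance 0.55), which read 12.61 and 12.62 in WT, 14.09 and 14.28 in TIA1 KO and 7.90 and 7.90 in TIAR KO. Btbd11 (0.92), the desmosomal gene Perp (1.20), the proteoglycan gene Cspg4 (1.27) and the phosphatase gene G6pc3 (1.57) followed. All 5 were highest in TIA1 KO and lowest in TIAR KO with no overlap, as the choice by distance favours.

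Nearest to Gap43 were Klra22 (0.27), Klra16 (0.39), the decoy receptor gene Tnfrsf11b (0.44), Klra15 (0.53) and Grem1 (0.53). Tnfrsf11b read 6.75 and 6.81 in WT, 12.37 and 12.97 in TIA1 KO and 6.88 and 6.76 in TIAR KO. The Klra genes encode lectin-like receptors of natural killer cells in a multigene family whose gene content differs between mouse strains, so which family member each probe read is uncertain. The Klra22 and Klra16 probes shared a run of 17 bases, while no probe of these 5 genes shared more than 6 with the Gap43 probe, read on the same strand.

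**Figure D5:**
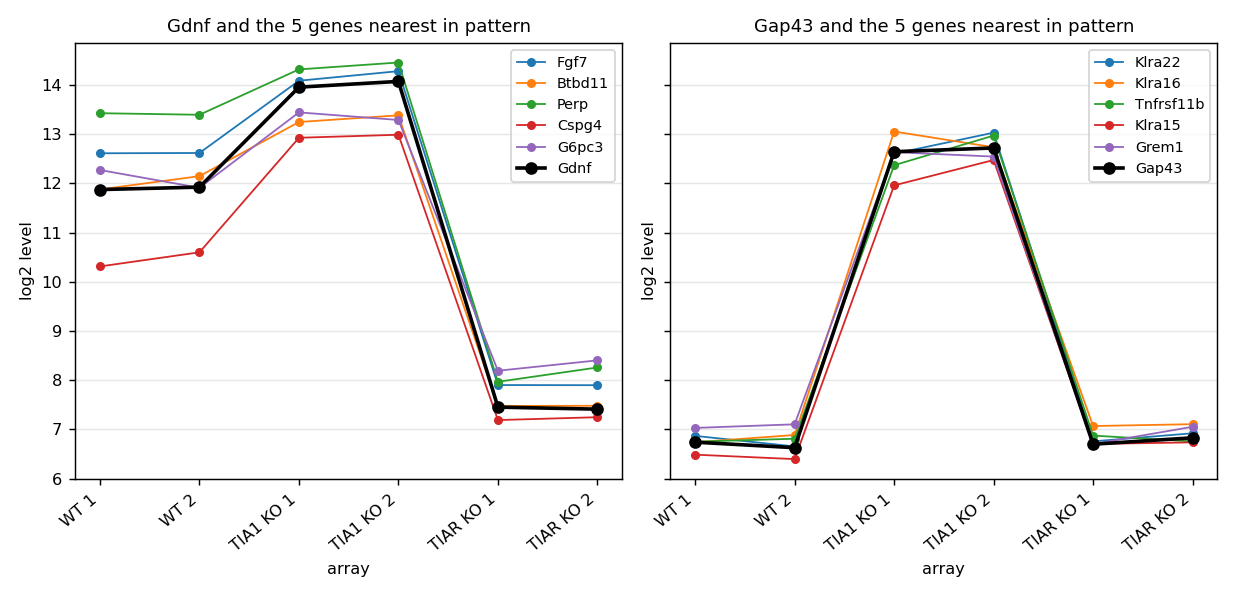
Log2 level (y axis) on each of the 6 arrays (x axis) of Gdnf (left) and Gap43 (right), in black, with the 5 genes nearest to each in pattern. Fgf7 stood at 12.61 and 12.62 in WT and at 7.90 and 7.90 in TIAR KO, and the genes nearest to Gap43 were high on the 2 TIA1 KO arrays.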

How the data were processed

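Total RNA of the 3 lines was labelled with Cy3 and hybridized to single-colour Agilent arrays. The authors deposited each array's spot intensity, local background, processed intensity (background subtracted by the scanner software, not normalized between arrays) and quality flags, with probe positions on mm9. Normalized log2 values of every spot, for which the authors used limma per the submitters' processing notes, were deposited in a separate table. Here, mean intensities were corrected by normexp (offset 50) and converted to log2 values, then loess (1 pass) and quantile normalized, then cleared of control and outlier spots, and averaged per probe. The result correlated with the authors' log2 table at 0.997 to 0.999 per array. limma 3.58.1 (R 4.3.3; lmFit, eBayes, two-sided) compared pairs of groups over 55681 probes, without a block, after tests on simulated data. The number of arrays limits the precision.

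The 9 genes, gene lists and alternatives were chosen with earlier results of these data known. Named were the 9 genes, the targeted genes, every called gene of the 4 ligand and receptor lists, up to 4 called genes per knockout of each other list by size of change, and leading markers. Also named were the 5 genes nearest in pattern to Gdnf and to Gap43. Nrtn, Gfra4, Ntrk3, Stmn4, Gnao1 in TIA1 KO, Eya1, Vim, Pdgfra and some other markers, were added after their values were seen. Of 28685 probes with a RefSeq accession 94.9% matched the RefSeq gene table, which gave current symbols. Gdnf, Gap43 and some genes not reported here were left out of the list counts. The alternatives were the authors' table, 2 other scalings, no loess, another offset, outlier spots kept, a filter on dim probes, a joint fit, an intensity trend, a test of the fold itself, a replicate block and each array left out.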

Additional observations from a re-analysis of the deposited data

How the results depend on the processing

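The TIAR KO comparison held best and the TIA1 KO comparisons least. In TIA1 KO versus WT, 1969 probes were called, and 1309 in the authors' table, 3986 with all 3 groups in one fit, 440 when a fold above 2 was tested itself, and 0 to 10735 with 1 array left out. A common median gave 15801 calls, 11.9% of them higher against 61.6%, and the 75th percentile scaling gave 0, with 27765 probes at an unadjusted p under 0.05. In TIAR KO versus WT, 3206 were called, and 1016 when the fold was tested; the share higher was 58.8%, and 34.4% with a common median. In TIAR KO versus TIA1 KO, 1866 were called, 8307 with a common median (87.2% higher against 51.3%), 2925 after the filter on dim probes, 3183 in the joint fit, 409 when the fold was tested, and 0 to 10086 with 1 array left out; the 75th percentile scaling made 8.28% of its calls higher. The 0 came without either TIAR KO replicate, with 6318 and 6402 probes at an unadjusted p under 0.05.

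Of the list genes, 27 were called in TIA1 KO, with 72 under a common median, 0 under the 75th percentile scaling, 44 in the joint fit, 8 with the fold tested and 0 to 56 with 1 array left out; in TIAR KO, 40 were called and 18 with the fold tested. Common median and 75th percentile scaling moved the median probe in TIA1 KO by -0.67 and 1.98, and the cause was not tested.

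Deviations of same-numbered arrays from their group means correlated at 0.08 for TIA1 KO and WT, 0.03 for TIAR KO and WT, and -0.07 for the knockouts. A single correlation over all probes cannot exclude that same-numbered samples were paired, with a shared effect on some genes. With the replicate number as a block the calls were 671 in TIA1 KO, 3302 in TIAR KO and 0 in TIAR KO versus TIA1 KO (10675 probes at an unadjusted p under 0.05), and 10 list genes in TIA1 KO.

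Calls given above without a count of lost settings were not all kept in every setting. Of 71 differences of single genes, 8 values reversed, and the cause was not tested. A common median turned Irs2 (-0.27) and Manf (-0.11) in TIA1 KO, Ntrk2 in TIAR KO (-0.16) and Bdnf in TIAR KO versus TIA1 KO (0.0064). With 1 array left out Ntrk2 ran from -1.21 to 0.083 in TIA1 KO (the latter without TIA1 KO replicate 1), from -0.48 (without WT replicate 1) to 0.50 in TIAR KO, with -0.092 without TIAR KO replicate 2, and from -0.073 (without TIA1 KO replicate 1) to 1.22 in TIAR KO versus TIA1 KO.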
